A study of Mus musculus with 4 samples.

Results

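The genes described here encode the nuclear-coded subunits of the 5 complexes of oxidative phosphorylation, measured in ventricles of DOCA-treated mice on high and low salt. Members were the array clones with a single gene symbol whose name marks a subunit of NADH dehydrogenase (complex I), succinate dehydrogenase (complex II), cytochrome bc1 (complex III), cytochrome c oxidase (complex IV) or ATP synthase (complex V). The name rule used no measured value. Under complex IV the rule also takes in Cox7a2l and Cox6b2, whose products are not counted as core or somatic subunits. It gave 98 clones with values of 100 printed, which were averaged to 60 genes of the 8106 named genes on the array. Complex I had 23 of them, complex II 4, complex III 7, complex IV 11 and complex V 15, and 59 are annotated as protein coding while Ndufs5-ps is a transcribed pseudogene. A further 3 clones carry several symbols, at least 1 of which fits the rule, and were not used.

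Each of the 4 printed two-channel cDNA arrays set RNA from the ventricles and septum of 1 high-salt mouse against that of 1 low-salt mouse, so that 6 male mice formed 3 pairs. Drinking water held 1% NaCl for the high-salt mice and was tap water for the low-salt mice. In both groups the mice were wild type, backcrossed to N5–6 on 129Ola/C57BL/6J and carried 1-renin, had lost 1 kidney, ate food with 0.5 mg Na per g, received deoxycorticosterone acetate (DOCA), a mineralocorticoid, for 5 weeks and were 12 to 13 weeks old. The high-salt mice had DOCA too, so the comparison is one of salt intake under DOCA and holds no mouse without it. Hearts weighed 131, 128 and 120 mg in high salt and 109, 107 and 108 mg in low salt, in pairs 1 to 3. Arrays 1 and 2 held pairs 1 and 2 with the high-salt RNA in Cy3, and arrays 3 and 4 held pairs 3 and 2 with it in Cy5. Array 4 was thus array 2 with the dyes exchanged, and both were averaged before any mean, SD or test.

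In oxidative phosphorylation, complexes I and II take electrons from NADH and succinate and pass them to ubiquinone, complex III hands them to cytochrome c, and complex IV passes them to oxygen. Complexes I, III and IV pump protons across the inner mitochondrial membrane, and complex V uses the proton gradient to make ATP. Heart muscle is packed with mitochondria and covers most of its ATP demand in this way.

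Every value below is a log2 ratio read as high over low salt, so a negative value means less RNA in the high-salt heart. The array titles word the comparison that way, which makes the direction likely, but it is not settled, and base 2 is assumed. The doubt comes from the arrays themselves. Over 16471 clones, arrays of like dye orientation correlated at r = 0.57 (1 and 2) and 0.43 (3 and 4), whereas arrays 1 and 3 correlated at -0.34 and arrays 2 and 4, which share both mice, at -0.073. Among the 60 members the correlations across genes were 0.61, 0.51, -0.42 and -0.19 for the same 4 array pairs. The 736 unnamed features that recur in every print block gave -0.94 (1 and 3) and -0.89 (2 and 4). Of all named genes, 14.8% had 1 sign on all 4 arrays, and in 31.3% the sign followed the dye. Among the former, Col1a2 stood at 1.18 and 1.13 on arrays 2 and 4, and Vdac1 at -1.19 and -1.05. Among the latter, Esrra stood at 1.09 and -1.10. Values are therefore also given with arrays 1 and 2 turned in sign, the reading that applies if the table holds 1 fixed dye ratio, assumed to be Cy5 over Cy3. If it were Cy3 over Cy5, every turned value would have the opposite sign. The ratios carry no level of any gene, so whether the tissue expressed heart markers could not be checked. The p-values reflect the spread of 3 pairs, which is not a spread between mice alone. Pair 1 was measured only with high salt in Cy3 and pair 3 only with it in Cy5. Mouse and dye differences therefore cannot be told apart in an SD over pairs, or in a shift when a pair is left out.

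Read as deposited, subunits of all 5 complexes lay slightly below 0. Of the 60 members, 51 had a mean below 0 and 9 above it, or 85.0% lower against 50.2% of all named genes. The median over members was -0.12, against -0.00026 over all named genes, and single genes ran from -0.45 for Cox6b2 to 0.094 for Cox6a1. The member medians were -0.021, -0.25 and -0.080 in pairs 1, 2 and 3, and the member median minus the median of the other 8046 genes was -0.033, -0.25 and -0.065 (mean -0.12 ± 0.12, SD, n = 3 pairs). The difference thus had 1 sign in every pair but was about as large as its SD, with pair 2 the lowest. Without pair 2 the member median was -0.057. With arrays 1 and 2 turned it was -0.013, against -0.011 over all named genes, and 34 members were lower of 60, against 53.3% of all named genes.

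**Figure D1:**
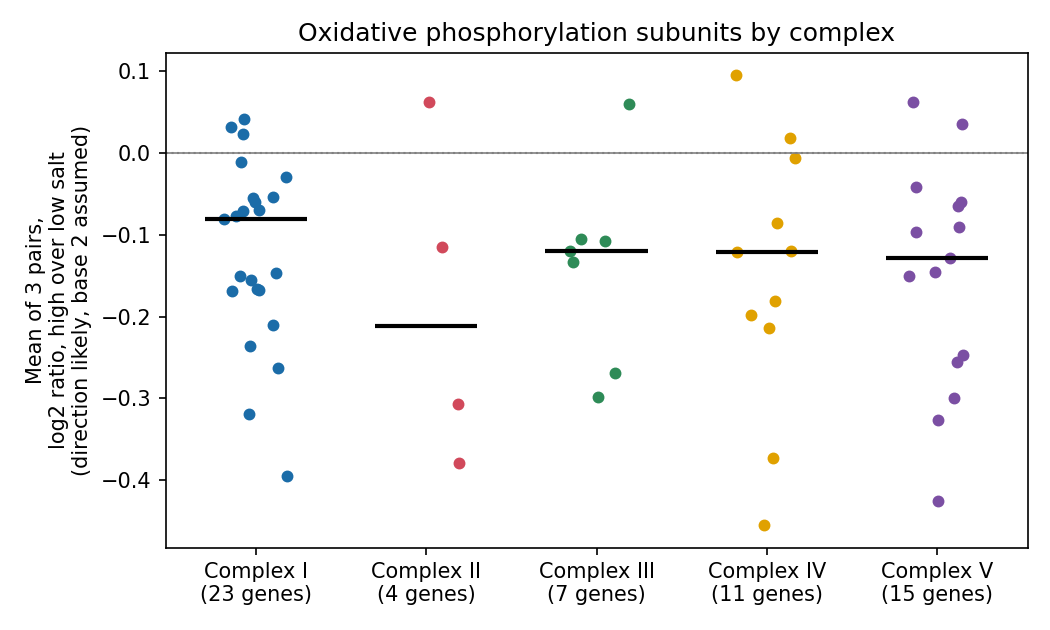
Mean log2 ratio, high over low salt, of each of the 60 subunit genes (points), grouped by complex, with the complex median as a bar. Most points lie below 0 in every complex, and the complex medians lie between -0.21 and -0.081.

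No subunit passed an adjusted threshold. Limma with Benjamini-Hochberg adjustment called 0 of 60 members and 0% of all named genes past 0.05. Among members the lowest adjusted p by limma was 0.655. At an unadjusted p under 0.05, 7 members were lower and 0 higher (11.7% lower, against 2.63% of all named genes lower and 2.81% higher). These 7 were Ndufa12, Ndufb10 and Ndufb11 of complex I, Sdha of complex II, Cox6b2 and Cox7b of complex IV and Atp5b of complex V. The count varied with the pairs used: 12 without pair 1, 1 without pair 2 and 15 without pair 3. For these fits the share of all named genes was not counted, so the change cannot be read as one of the members. With arrays 1 and 2 turned, 5 members were lower and 8 higher at that threshold, against 13.8% and 6.97% of all named genes, and the smallest adjusted p was 0.0882.

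Below 0 on all 4 arrays, which covers both dye orientations, were 18 members (30%, against 7.75% of all named genes). They comprised 6 genes of complex V, 5 of complex I, 3 of complex II and 2 each of complexes III and IV. Above 0 on all 4 arrays was 1 member, Cox6a1, against 7.01% of all named genes. In another 12 members (20%, against 31.3% of all named genes) the sign followed the dye: 7 were positive on arrays 1 and 2 and negative on arrays 3 and 4, and 5 ran the other way. Atp5d, Ndufs7 and Cox6b1 had the widest such swings, described under their complexes. These readings hold only if the table had been turned. If it holds 1 fixed dye ratio, the 12 are the members with 1 sign for salt on all arrays, and the 18 are not. With arrays 1 and 2 turned, 7 members were below 0 on every array. The same condition applies wherever a sign is said below to follow the dye.

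Differences between the complexes were small, and for complexes II to V they lay within the spread between pairs. Complex II had the lowest median, -0.21, and complex I the least negative, -0.081. Complexes III, IV and V stood at -0.12, -0.12 and -0.13. Set against the median of all other members in each pair, complex I differed by 0.022 ± 0.0073, complex II by -0.086 ± 0.15, complex III by -0.016 ± 0.17, complex IV by -0.0027 ± 0.057 and complex V by 0.0070 ± 0.0086 (mean ± SD, n = 3 pairs). Complex I was 0.015, 0.022 and 0.029 above the other members in pairs 1 to 3, a small difference of 1 sign that exceeded its SD. The other 4 complexes crossed 0 between pairs or stood less than 1 SD from it. The place of complex I depended on the settings. Its median was -0.11 both without the pseudogene Ndufs5-ps and with the median of clones, close to those of complexes III to V. Complex I minus complex IV was -0.051, 0.0098 and 0.070 in pairs 1 to 3, so these 2 exchanged order between pairs. The medians moved with the pairs used: without pair 2 they were -0.041 for complex I, -0.031 for complex III and -0.082 for complex V, and without pair 3 they were -0.15 for complex I and -0.24 for complex III. Complex IV stood at -0.21 without pair 1, and complex III at -0.21 with pair 2 taken from array 2 alone and -0.062 with array 4 alone. With arrays 1 and 2 turned, the medians were -0.0073 for complex I, 0.19 for complex II, 0.16 for complex III, -0.046 for complex IV and -0.023 for complex V, with 14 of 23, 1 of 4, 3 of 7, 6 of 11 and 10 of 15 genes lower.

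**Figure D2:**
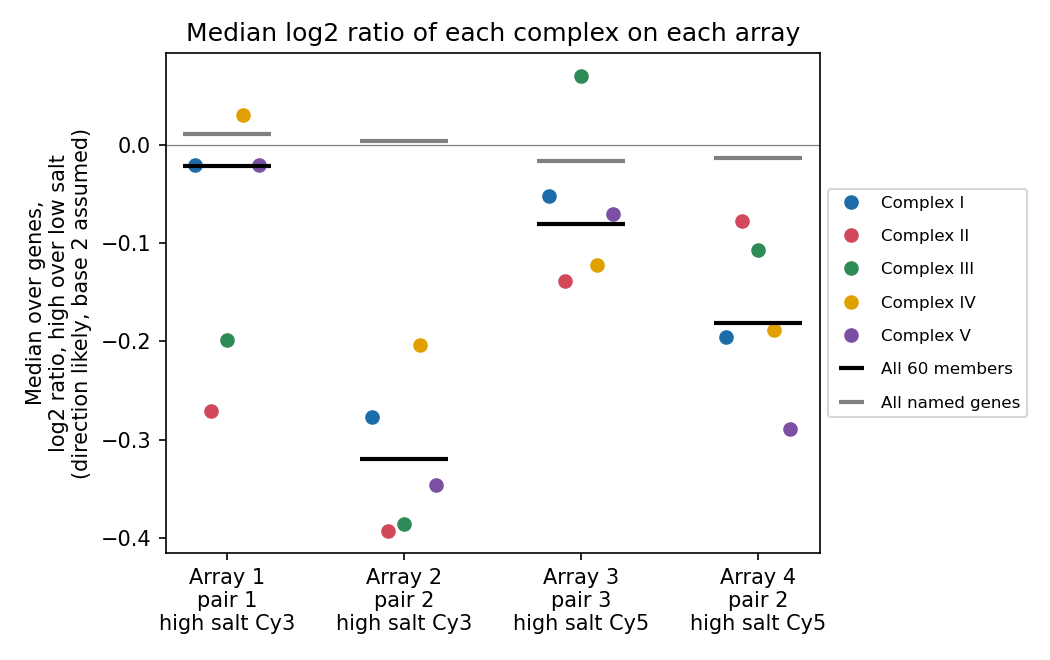
Median log2 ratio, high over low salt, of the genes of each complex (coloured points), of all members (black bars) and of all named genes (grey bars) on each of the 4 arrays. All members lie lowest on array 2, at -0.32, and next on array 4, at -0.18, which is the same pair with dyes exchanged. Complex III lies at 0.070 on array 3, and complex IV at 0.030 on array 1.

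Complex I, the NADH dehydrogenase, had 20 members lower and 3 higher. Its medians were -0.021, -0.28, -0.052 and -0.20 on arrays 1 to 4. In pair 2, all 23 measured members lay below 0, against 12 in pair 1 and 13 in pair 3. Of all 60 members 91.7% lay below 0 in pair 2, and of all named genes 50.7%. The 7 members of complex III were likewise all below 0 in that pair.

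Ndufa12, an accessory subunit of the arm that reaches into the matrix, had the smallest p of all members. It stood at -0.34, -0.67, -0.39 and -0.24 on arrays 1 to 4, with a mean of -0.39 ± 0.059 (SD, n = 3 pairs; limma adjusted p = 0.655). All 4 arrays were negative, and the arrays of pair 2 were the lowest and the highest of the 4. Turned, its mean was 0.055. Ndufb11, an accessory subunit of the membrane arm, stood at -0.15, -0.35, -0.26 and -0.40, with a mean of -0.26 ± 0.11 (limma adjusted p = 0.863; turned -0.043). Ndufb10, its neighbour in that arm, stood at -0.15, -0.20, -0.16 and -0.11, with a mean of -0.16 ± 0.0076 (limma adjusted p = 0.905; turned 0.0097). The 4 values of Ndufb10 lay closer together than those of any other named subunit that was below 0 on all arrays. Ndufs6, a zinc-binding accessory subunit, stood at -0.022, -0.48, -0.54 and -0.33, with a mean of -0.32 ± 0.27 (limma adjusted p = 0.931; turned -0.15). Its value in pair 1 was near 0 while pairs 2 and 3 were both negative.

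Ndufc2, a small subunit of the membrane arm, was the highest of complex I. It stood at 0.14, 0.15, 0.034 and -0.26, with a mean of 0.041 ± 0.10 and a turned mean of -0.10. The 2 arrays of pair 2 had opposite signs, so its direction was not established. The other 18 members of the complex had means from -0.24 for Ndufb5 to 0.031 for the pseudogene Ndufs5-ps. Among them, Ndufs7, which carries the last iron-sulfur cluster before ubiquinone, stood at 0.41, 0.33, -0.40 and -0.82, and its sign thus followed the dye. Its mean was -0.078 ± 0.43 as deposited and -0.46 turned.

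By position in the enzyme, the N module, where NADH is oxidised, had 8 of 8 measured genes lower with a median of -0.10. The Q module, where ubiquinone is reduced, had 2 of 3 lower with a median of -0.078, and the membrane arm, which holds the proton pumps, had 10 of 12 lower with a median of -0.12. Turned, 5 of 8, 3 of 3 and 6 of 12 genes were lower, with medians of -0.027, -0.17 and 0.0012. The N module minus the membrane arm was 0.11, -0.025 and -0.13 in pairs 1 to 3 (mean -0.016 ± 0.12), so the 2 arms exchanged order between pairs. Pairs 1 and 3 also differed in dye orientation, which cannot be told apart from a difference between mice.

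Complex II, succinate dehydrogenase, is also an enzyme of the tricarboxylic acid cycle, has 4 subunits and pumps no protons. All 4 were measured. Sdha, the flavoprotein that oxidises succinate, stood at -0.48, -0.75, -0.25 and -0.068 on arrays 1 to 4, with a mean of -0.38 ± 0.12 (SD, n = 3 pairs; limma adjusted p = 0.832; turned 0.19). Sdhb, the iron-sulfur subunit bound to it, stood at -0.57, -0.50, -0.059 and -0.087, with a mean of -0.31 ± 0.25 (limma adjusted p = 0.931; turned 0.24). Both catalytic subunits were negative on all 4 arrays, and further below 0 on arrays 1 and 2 than on arrays 3 and 4.

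The membrane anchors of complex II, which bind ubiquinone, were closer to 0. Sdhc stood at -0.018, -0.11, -0.22 and -0.11 (mean -0.12 ± 0.10; limma adjusted p = 1; turned -0.067). Sdhd stood at -0.059, -0.28, 0.20 and 0.38 (mean 0.062 ± 0.13; limma adjusted p = 1; turned 0.20). Sdhd was negative on arrays 1 and 2 and positive on arrays 3 and 4, and the sign of its mean turned without pair 3, to -0.0058. The difference between catalytic subunits and anchors was not tested.

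Complex III, cytochrome bc1, had 6 of 7 members lower, and its medians were -0.20, -0.39, 0.070 and -0.11 on arrays 1 to 4. Uqcrc1, a core protein on the matrix side, stood at -0.0017, -0.58, -0.55 and -0.11, with a mean of -0.30 ± 0.28 (SD, n = 3 pairs; limma adjusted p = 0.948; turned -0.10). Uqcrh, the hinge protein that aids the contact of cytochrome c1 with cytochrome c, stood at -0.45, -0.38, -0.082 and -0.18, with a mean of -0.27 ± 0.18 (limma adjusted p = 0.917; turned 0.16). These were the 2 members of complex III that lay below 0 on all arrays, and neither passed the unadjusted threshold.

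Uqcrc2, the other core protein, stood at -0.20, -0.54, 0.11 and -0.0030 (mean -0.12 ± 0.20; turned 0.19). Cyc1, the cytochrome c1 haem protein, stood at -0.33, -0.39, 0.27 and -0.12 (mean -0.11 ± 0.33; turned 0.25). Uqcrb, a ubiquinone-binding protein, stood at 0.22, -0.22, 0.070 and 0.0018 (mean 0.060 ± 0.17; turned -0.013). Each of the 3 had arrays on both sides of 0. Without pair 1 the means of Cyc1 and Uqcrb turned to 0.0085 and -0.020. The Rieske iron-sulfur protein Uqcrfs1 stood at -0.39, -0.63, 0.33 and 0.10, another sign that followed the dye. Its mean was -0.11 ± 0.38 as deposited and 0.36 turned (limma adjusted p = 0.093 turned). The core and catalytic genes minus the accessory genes were -0.49, 0.011 and 0.27 in pairs 1 to 3, which shows no stable order. Here too, pairs 1 and 3 differed in dye orientation as well as in mice. Turned, 1 of 4 core and catalytic genes and 2 of 3 accessory genes were lower, with medians of 0.22 and -0.013.

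Complex IV, cytochrome c oxidase, had 9 of 11 members lower. Its medians were 0.030, -0.20, -0.12 and -0.19 on arrays 1 to 4. Without Cox7a2l and Cox6b2, which are not counted as core or somatic subunits, 7 of its members were lower. Cox6b2, the form of subunit 6b known from testis, had the lowest mean of all 60 members. It stood at -0.23, -0.77, -0.29 and -0.93, with a mean of -0.45 ± 0.34 (SD, n = 3 pairs; limma adjusted p = 0.905; turned -0.046), and rests on 1 clone. Both arrays of pair 2 were far lower than those of pairs 1 and 3. Without pair 2 its mean was -0.26, and several other subunits then stood lower. Among them were Atp5b, Sdha and Ndufa12 at -0.37, -0.37 and -0.36, and Atp5c1, Cox7b and Sdhb at -0.34, -0.34 and -0.31. The widely expressed form Cox6b1, also on 1 clone, did not follow it: it stood at 0.19, 0.24, -0.57 and -0.75 (mean -0.21 ± 0.38; turned -0.42). Whether both clones bind RNA of either gene was not tested.

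Cox7b, a small accessory subunit in the inner membrane, stood at -0.59, -0.36, -0.087 and -0.53, with a mean of -0.37 ± 0.26 (limma adjusted p = 0.872; turned 0.14). Cox4i1, the widely expressed form of subunit 4 through which ATP and ADP regulate the oxidase, stood at -0.12, -0.54, -0.15 and 0.0030, with a mean of -0.18 ± 0.079 (limma adjusted p = 0.917; turned 0.081). Cox7b was negative on all arrays and Cox4i1 on 3 of them. Cox6a1, the liver-type form of subunit 6a, was the single member above 0 on all arrays, at 0.055, 0.17, 0.12 and 0.037 (mean 0.094 ± 0.035; limma adjusted p = 1; turned 0.00076). Its heart form and those of subunits 7a and 8 could not be set beside the widely expressed ones, since in 0 of 4 families looked for were both the muscle form and the widely expressed form measured.

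Complex V, the ATP synthase, had 13 of 15 members lower, with medians of -0.021, -0.35, -0.070 and -0.29 on arrays 1 to 4. In its F1 head and central stalk, where ATP is formed, 4 of 5 genes were lower with a median of -0.30 (turned 3 of 5 and -0.067). Atp5b, the catalytic beta subunit, stood at -0.68, -1.03, -0.060 and -0.030, with a mean of -0.43 ± 0.32 (SD, n = 3 pairs; limma adjusted p = 0.915; turned 0.37). Atp5c1, the gamma subunit that turns inside the head, stood at -0.56, -0.35, -0.12 and -0.078, with a mean of -0.30 ± 0.23 (limma adjusted p = 0.931; turned 0.19). Both were negative on all arrays, and both were larger in size on the arrays with Cy3 on high salt.

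Atp5a1, the alpha subunit that alternates with beta in the head, stood at 0.20, -0.96, -0.59 and -0.21 (mean -0.33 ± 0.46; limma adjusted p = 1; turned -0.14). It was positive in pair 1 and negative in pairs 2 and 3. Atp5d, the delta subunit at the foot of the central stalk, had the widest range of the 60 members, at 0.94, 0.52, -0.74 and -0.56 (mean 0.062 ± 0.84; limma adjusted p = 1). With arrays 1 and 2 turned, its mean was -0.74 (limma adjusted p = 0.0882), the smallest p of the members under that reading. Atp5d rests on 1 clone.

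Of the peripheral stalk, which holds the head still, 4 of 4 genes were lower with a median of -0.12 (turned 2 of 4 and 0.047). Atp5o, the oligomycin sensitivity protein that joins stalk and head, stood at -0.29, -0.51, -0.016 and -0.36 (mean -0.25 ± 0.21; limma adjusted p = 0.941; turned 0.12). Of the membrane part, 5 of 6 genes were lower with a median of -0.094 (turned 5 of 6 and -0.035). Atp5g3 and Atp5g1 are separate genes for the same mature protein of the rotating c ring. Atp5g3 stood at -0.28, -0.65, 0.046 and -0.42 (mean -0.26 ± 0.29; limma adjusted p = 0.995; turned 0.15), and Atp5g1 at 0.030, -0.28, -0.088 and -0.37 (mean -0.13 ± 0.18; turned -0.054). Both were lowest on the arrays of pair 2. So were the other genes of the membrane part: 6 of 6 lay below 0 on arrays 2 and 4 and had their lowest value in pair 2. The shares below 0 on both arrays were 68.3% of all members and 24.1% of all named genes. Pair 2 was the lowest pair for 48.3% of members and 25% of named genes. F1 minus membrane part was -0.095, 0.088 and -0.11 in pairs 1 to 3 (mean -0.038 ± 0.11), so no order of the parts was established.

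**Figure D3:**
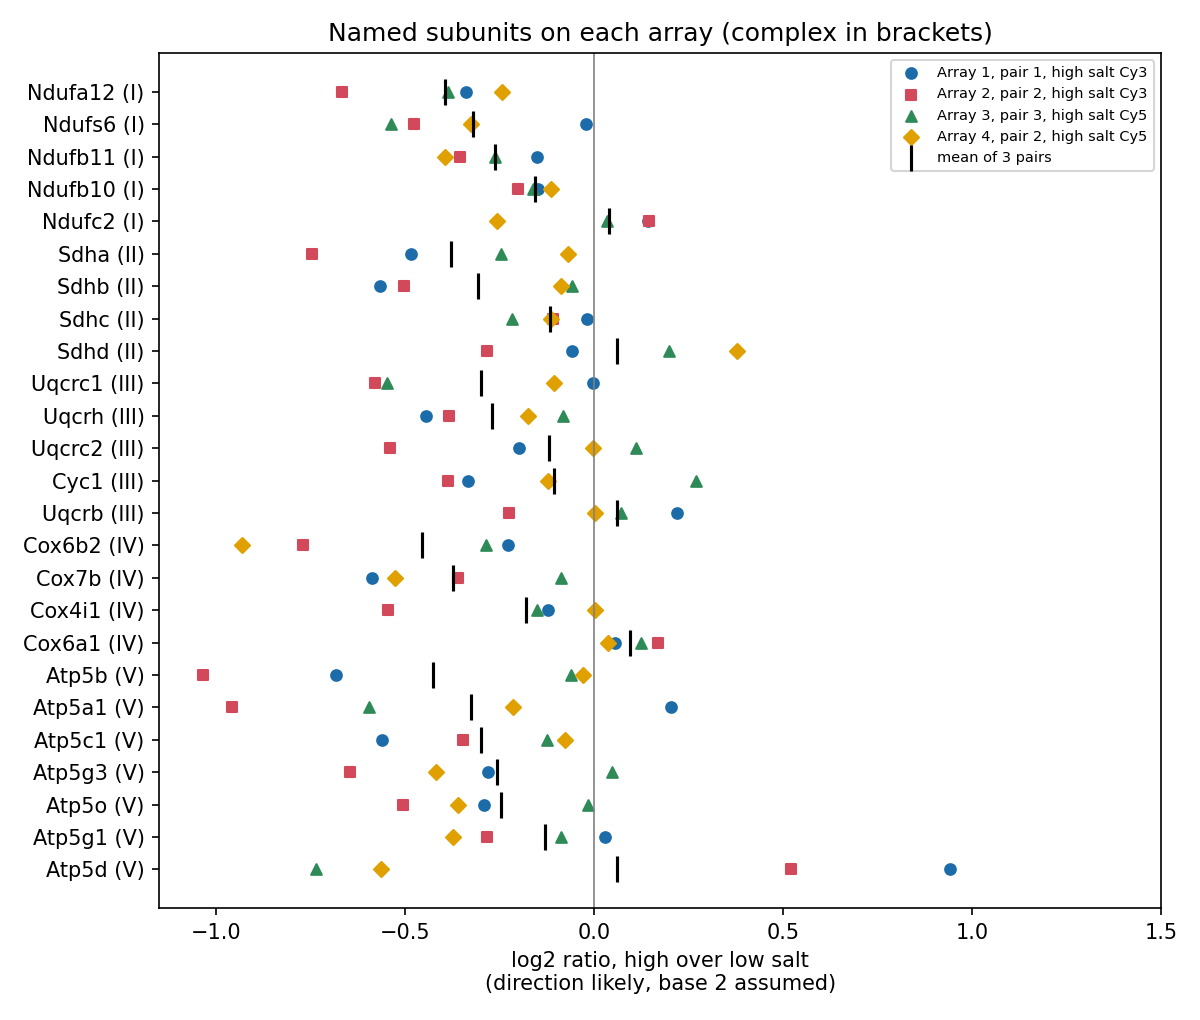
Log2 ratio, high over low salt, of the 25 subunits named by rule on each array (coloured symbols) with the mean of the 3 pairs (black bars). Cox6b2, Ndufa12 and Ndufb11 lie left of 0 on all arrays, Cox6a1 lies right of it, and Atp5d has 2 arrays on each side, from -0.74 to 0.94.

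Pair 2, the pair measured with both dye orientations, carried much of the shift. In that pair 55 of 60 members lay below 0 (91.7%, against 50.7% of all named genes), compared with 35 (58.3%, against 45.9%) in pair 1 and 38 (63.3%, against 53.7%) in pair 3. Pair 2 averages 2 arrays of opposite dye orientation, however, while pairs 1 and 3 hold 1 array each. On single arrays 1 to 4, 35, 49, 38 and 49 members lay below 0, against 3724, 3991, 4351 and 4380 of the 8106 named genes. On arrays 2 and 4 alike, 41 members were below 0 (68.3%, against 24.1% of all named genes) and 3 above (5%, against 20.8%). For 29 members (48.3%, against 25% of all named genes) pair 2 was the lowest pair. A value below 0 on both arrays does not depend on which dye the high-salt RNA carried, as long as the table had been turned, whereas under the turned reading these 41 members have opposite signs on arrays of the same mice. The high-salt heart of pair 2 weighed 128 mg, between those of pairs 1 and 3.

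**Figure D4:**
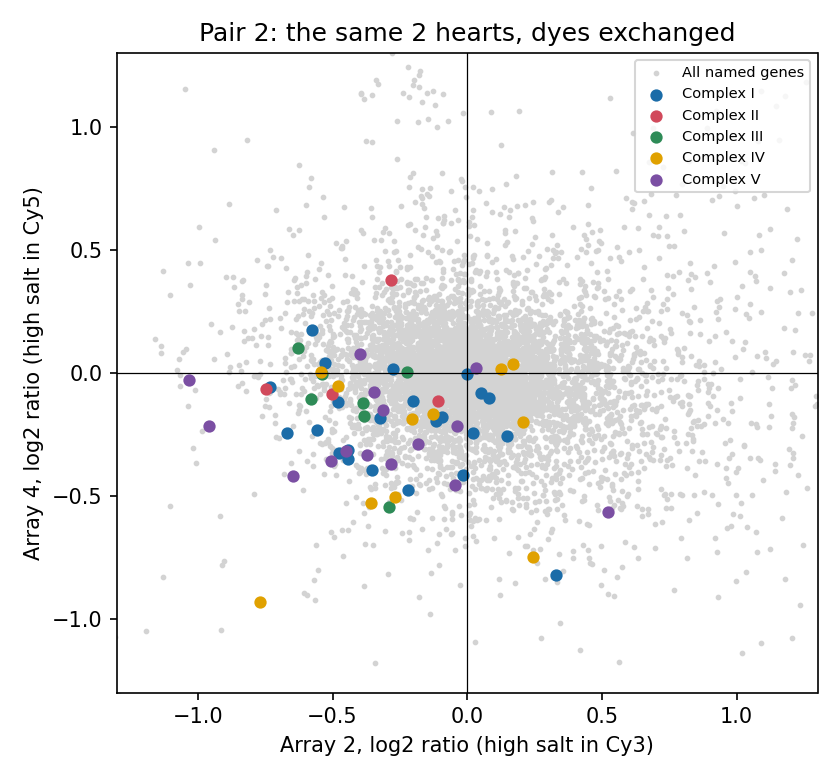
Log2 ratio of each gene on array 2 (high salt in Cy3, x axis) and array 4 (high salt in Cy5, y axis), both of pair 2, with members coloured by complex and all named genes in grey. The lower left area, below 0 on both arrays, holds 41 of 60 members, and 89 named genes but 0 members lie outside the drawn range of ±1.3.

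Most single clones lay below 0 as well. Of the 98 member clones, 81 had a mean below 0 (82.7%, against 49.4% of all named clones) and 25 were below 0 on all 4 arrays (against 7.09% of all named clones). Tested singly by limma, 13 were lower at an unadjusted p under 0.05 (against 2.69% of all named clones) and 1, of Cox6a1, was higher (against 3.12%). Of the 24 genes with more than 1 clone, 15 had every clone below 0, 3 had every clone above it and 6 had clones of both signs. The 4 clones of Atp5b lay between -0.45 and -0.40. The 4 clones of Atp5a1 ran from -0.76 to -0.0013, and the 5 of Cox4i1 from -0.41 to 0.037. A small SD of a gene mean can hide clones that vary: the 3 clones of Sdha had SDs between pairs of 0.45 to 0.60, against 0.12 for the gene, and those of Cox4i1 0.16 to 0.64, against 0.079. Cox6a1 averaged clones at -0.028 and 0.22, so its place above 0 rests on 1 of 2 clones.

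**Figure D5:**
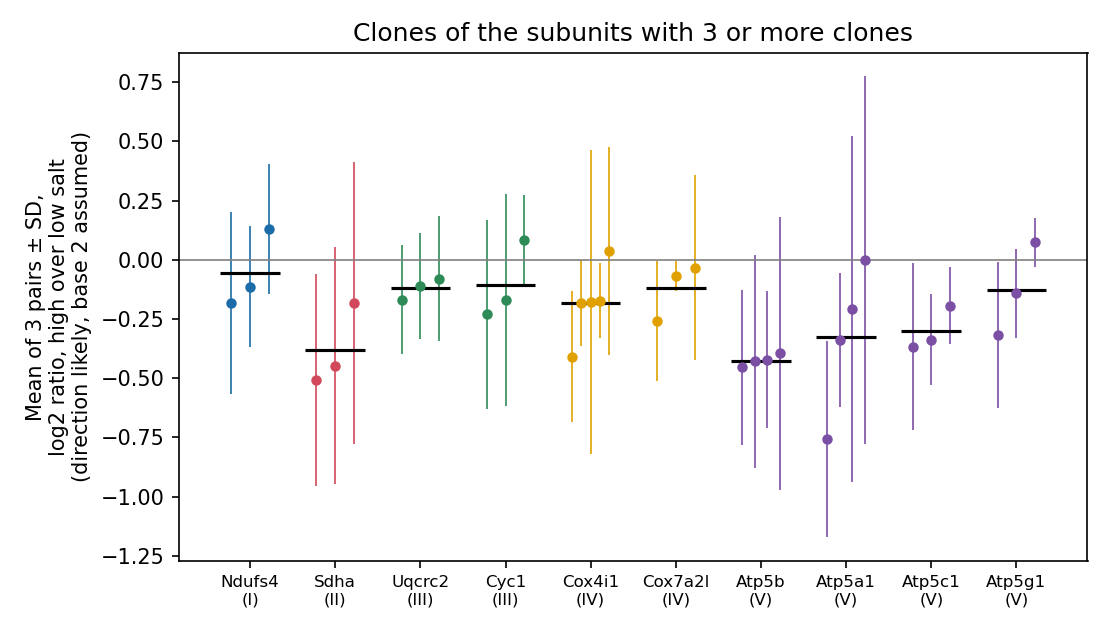
Mean log2 ratio, high over low salt, of each of the 34 clones of the 10 member genes with at least 3 clones (points), with the SD over 3 pairs as thin lines and the gene mean as a black bar. The clones of Atp5b coincide within 0.059, while those of Atp5a1 spread over 0.76.

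Promoters of nuclear-coded subunits are known to hold sites for a few shared activators, among them NRF1, YY1, ETS factors such as GABP, and the oestrogen-related receptors (ERR). A short core of each was looked for in the 250 bases before the annotated start, in RefSeq sequence of GRCm38.p6, for 49 members with 53 promoters and for 8457 promoters of 6587 genes on the array. On either strand, CGCATGCG (NRF1) stood in 13.2% of member promoters and 3.70% of all, ATGGCGGC (YY1) in 11.3% and 4.52%, ACTTCCGG (ETS) in 9.43% and 7.58%, and TGACCTT (ERR) in 9.43% and 3.06%. A match is a description of the letters and not a bound site. The promoters below are examples from members with a core close to the start, or with more than 1 core, and show where the cores lie. Uqcr11 and Atp5k (means -0.13 and -0.041) also had more than 1 kind of core and are not shown. Nor is Ndufa7 (mean -0.030), whose YY1 core begins 98 bases before the start. Cores are in capitals, and each sequence runs 5′ to 3′ up to the base before the start.
Atp5l: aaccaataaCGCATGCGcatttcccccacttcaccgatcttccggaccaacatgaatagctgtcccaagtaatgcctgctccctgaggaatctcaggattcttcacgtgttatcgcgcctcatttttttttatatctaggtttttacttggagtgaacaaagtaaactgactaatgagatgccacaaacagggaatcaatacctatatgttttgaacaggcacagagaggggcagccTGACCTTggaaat
Uqcrh: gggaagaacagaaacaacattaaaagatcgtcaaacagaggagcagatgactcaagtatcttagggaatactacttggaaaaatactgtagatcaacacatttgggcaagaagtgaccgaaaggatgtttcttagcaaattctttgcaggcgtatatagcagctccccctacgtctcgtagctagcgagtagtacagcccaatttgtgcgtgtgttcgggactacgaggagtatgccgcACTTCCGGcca
Atp5g3: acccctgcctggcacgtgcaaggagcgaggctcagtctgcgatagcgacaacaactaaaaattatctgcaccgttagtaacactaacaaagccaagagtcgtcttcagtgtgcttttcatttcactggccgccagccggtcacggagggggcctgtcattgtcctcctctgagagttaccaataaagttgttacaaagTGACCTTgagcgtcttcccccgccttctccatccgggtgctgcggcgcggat
These are chr9:44920743-44920992 for Atp5l, chr4:116075071-116075320 for Uqcrh and chr2:73911327-73911576 for Atp5g3, each on the minus strand of GRCm38.p6. In Atp5l, which encodes subunit g of the ATP synthase, the NRF1 core begins 241 bases and the ERR core 13 bases before the start. In Uqcrh the ETS core begins 11 bases, and in Atp5g3 the ERR core 52 bases before it. Atp5l stood at -0.021, -0.37, -0.079 and -0.33 on arrays 1 to 4 (mean -0.15 ± 0.18), lowest in pair 2 like Atp5g3. Members with a core were not lower than those without: the median log2 ratio with and without was -0.071 and -0.12 for NRF1, -0.078 and -0.12 for YY1, -0.097 and -0.12 for ETS, and -0.090 and -0.12 for ERR. The sets overlap and these medians were not tested. The genes shown, Atp5l, Uqcrh and Atp5g3, had means of -0.15, -0.27 and -0.26, below each median with a core.

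Genes that work beside the complexes did not move as 1 group. Of 12 listed electron carriers and ATP export genes 9 were measured, 6 lower and 3 higher, with a median of -0.16, and 2 were lower at an unadjusted p under 0.05 (against 2.63% of all named genes). Turned, 3 of the 9 were lower and the median was 0.11. The 2 were Vdac1, the outer membrane channel, and Slc25a4, the ADP/ATP carrier of heart and muscle. Slc25a4 stood at -0.29, -0.38, -0.097 and -0.29 on arrays 1 to 4, with a mean of -0.24 ± 0.13 (SD, n = 3 pairs; limma adjusted p = 0.868; turned 0.077). Cycs, the somatic cytochrome c that links complexes III and IV, stood at -0.13, -0.31, 0.20 and 0.33 (mean 0.026 ± 0.17; turned 0.22). Etfdh, which feeds electrons from fatty acid oxidation to ubiquinone, stood at -0.92, -0.85, 0.053 and 0.28 (mean -0.39 ± 0.50; turned 0.51). Both had signs that followed the dye.

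Assembly factors, which build the complexes, had means close to 0. Of 34 listed, 19 were measured, 5 lower and 14 higher, with a median of 0.034, pair medians of 0.041, -0.0020 and -0.011, and 0 at an unadjusted p under 0.05 in either direction. With arrays 1 and 2 turned, 10 of the 19 were lower and the median was -0.025. Of 13 listed regulators 10 were measured, 7 lower and 3 higher, with a median of -0.027 (turned -0.060, 7 lower) and 0 at that threshold. Ppargc1a, the coactivator that raises mitochondrial gene expression, stood at 0.44, -0.17, -0.44 and -0.089 (mean -0.043 ± 0.44; turned -0.28). Esrra, an oestrogen-related receptor that binds subunit promoters, stood at 0.90, 1.09, -1.14 and -1.10 (mean -0.084 ± 1.02; turned -1.04), so its reading depends on the direction of the table. Of the 13 subunits coded by mitochondrial DNA, 0 were measured under their symbols.

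Markers of the cell types that ventricle tissue can hold were read from the same arrays. Of 13 fibroblast markers 11 were measured, and 11 of 11 lay above 0, with medians of 0.34, 0.45 and 0.58 in pairs 1 to 3 and 6 at an unadjusted p under 0.05 (against 2.81% of all named genes higher). None of these 11 passed limma's adjusted threshold. Turned, their median was -0.0061. The subunit median was lowest in pair 2 and the fibroblast median highest in pair 3. Pairs 1 and 3 also differed in dye orientation, so an order of the pairs cannot be told apart from dye. Of 19 cardiomyocyte markers 5 were measured, 3 lower and 2 higher, with a median of -0.055 and pair medians of -0.19, 0.043 and -0.0093. Medians of the other marker lists were 0.071 for endothelium (6 of 9 measured), 0.18 for smooth muscle and pericytes (3 of 6), -0.063 for adipocytes (5 of 6), 0.030 for macrophages and leukocytes (2 of 9) and -0.019 for blood (2 of 7). Turned, these were 0.065, -0.0092, 0.061, 0.19 and 0.0070 in the same order, and the cardiomyocyte median was 0.078. Their part in the subunit values was not tested. In whole ventricle RNA, fewer muscle cells and less subunit RNA per cell cannot be told apart.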

How the data were processed

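Arrays were printed cDNA slides of an embryonic clone set with added clones, and RNA was reverse transcribed with oligo(dT), per the labels' protocols. For each feature the authors deposited a dye ratio on a log scale, read as log2. Base, direction, background correction and normalization: not given in the sources used here. Of 17664 features 17207 had values, and 736 at 23 print positions that recur, unnamed, in all 32 blocks were left out as presumed controls. Names came from the platform annotation, and clones of 1 symbol were averaged. With 2-colour ratios and no intensities, the 4 arrays limit the precision. Pair values were tested against 0 over all 8106 genes with limma 3.58.1 in R 4.3.3 (intercept, eBayes, Benjamini-Hochberg); the code was tested on simulated data. Replicates are separate mice. No p is given for the members as a list. Named were, per complex, the 4 members with the smallest p, then the 5 highest means, all of complex II, the measured c-ring genes, muscle and widely expressed pairs of subunits 4, 6a, 7a and 8 with both measured, and genes with at least 4 clones. Other genes were singled out after their values were seen. Members and lists were chosen with earlier results of these data known. Settings varied were array direction, pairs, arrays of pair 2, scaling, centring, clone summary, single-clone genes, dye term, recurring features and members counted. Promoters are RefSeq's, GRCm38.p6; those on chromosome 18 are not shown.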

Additional observations from a re-analysis of the deposited data

How the results depend on the processing

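Over 15 other settings and 514 recomputed values, 470 kept their direction and side of the threshold or moved less than the spread. Part of this was fixed in advance. A dye term, recurring features kept and a limit to genes with over 1 clone leave each gene's mean unchanged. Leaving out Ndufs5-ps cannot move complexes II to V. Values counted as kept include the turned member median, -0.013 against -0.12, and the turned count below 0, 34 against 51. The 470 is thus no measure of robustness. With arrays 1 and 2 turned, 16 of 25 named genes changed sign: Atp5b to 0.37, Cyc1 to 0.25, Sdhb to 0.24, Sdha, Uqcrc2 and Atp5c1 to 0.19, Uqcrh to 0.16, Atp5g3 to 0.15, Cox7b to 0.14, Atp5o to 0.12, Cox4i1 to 0.081, Ndufa12 to 0.055, Ndufb10 to 0.0097, Uqcrb to -0.013, Ndufc2 to -0.10 and Atp5d to -0.74. Complex II then had a median of 0.19 and complex III of 0.16, 8 members were higher at an unadjusted p under 0.05 against 0 as deposited, and 7 were below 0 on every array against 18. The cause of these shifts was not tested. With pair 2 from array 4 alone Atp5d stood at -0.12 and Ndufc2 at -0.026, and with array 2 alone Sdhd stood at -0.048. Leaving out each pair in turn moved Atp5d between -0.38 and 0.46, Cyc1 between -0.29 and 0.0085, Ndufc2 between -0.011 and 0.089, Uqcrb between -0.020 and 0.15 and Sdhd between -0.0058 and 0.12. Members lower at an unadjusted p under 0.05 were 7 as deposited, 1 to 15 with a pair left out, 16 with a dye term, 4 with recurring features kept and 3 with pair 2 from array 4 alone. Apart from the deposited reading, the share of all named genes was not counted here. A rise or fall can therefore be shared by all genes. Restricted to the 24 genes with more than 1 clone, 3 passed that threshold, 20 had a mean below 0 and 8 were below 0 on every array. As single clones, a choice made after seeing the data, 13 of 98 passed it downward and 1 upward. The member median lay between -0.16 and -0.057 with a pair left out, and between -0.13 and -0.12 under the scaling, centring and clone-summary settings. The pair as a random block was not run, because 4 arrays in 3 pairs gave no estimate of its correlation, nor was the move of Ndufa4 to complex IV, which needs a clone with that symbol alone. The reported fit is itself paired, since each array sets 1 high-salt mouse against 1 low-salt mouse, so there was no separate replicate block to add. Ratios without intensities give no signal over background, so dim clones could not be told from bright ones.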
